A study of Mus musculus with 8 samples.

Results

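Flnc, Tagln2, Vim, Gsn, Tmsb4x, Tmsb10, Emp3 and Plvap are 8 of the 18833 genes measured in mature oligodendrocytes of mice with and without microglia. They were chosen by measured values, since each had been seen at a higher level in the oligodendrocyte cluster called Oligo1 than in the other oligodendrocytes, and each was grouped under actin binding or the cell membrane. Their levels in Oligo1 are therefore given as a description, with no test. The label "actin-linked" holds for 5 of them by known function (Flnc, Tagln2, Gsn, Tmsb4x and Tmsb10), whereas Vim encodes an intermediate filament and Emp3 and Plvap encode membrane proteins.

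The FireΔ/Δ mice (KO) lack the Fire enhancer, an intronic regulatory element of Csf1r, and have no microglia, and Fire+/+ mice (WT) served as controls. Single cells came from 2 WT mice (mice 1 and 4) and 2 KO mice (mice 3 and 6), all female, mice 1 and 3 aged 1 month and 18 days and mice 4 and 6 aged 1 month and 16 days. Each mouse gave a hippocampus library and a library labelled cortex, which holds the rest of the left hemisphere without the hippocampus, so that 8 libraries came from 4 mice. The enhancer is deleted in every cell of the KO mice, not in microglia alone, and the KO arm is 2 animals. Only cells kept as oligodendrocytes, sorted by their authors into Oligo1 to Oligo4, were used.

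Actin filaments drive the advance of an oligodendrocyte process around an axon and are then taken apart while the myelin sheath spreads and compacts. Gelsolin (Gsn) severs and caps filaments, and the thymosins Tmsb4x and Tmsb10 hold actin monomers out of filaments. Filamin C (Flnc) and transgelin 2 (Tagln2) bind filaments and crosslink or stabilise them. Vimentin (Vim) is the intermediate filament of progenitors and of many non-neural cells and is low in mature oligodendrocytes. Emp3 belongs to the PMP22 family of tetraspan membrane proteins, and Plvap forms the diaphragms of fenestrae and caveolae in endothelial cells.

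The 8 genes lie on 6 chromosomes (GRCm38, GENCODE vM21 annotation). Tagln2 is at chr1:172500047-172507380, Vim at chr2:13573927-13582826 and Gsn at chr2:35256380-35307892, all on the plus strand. Flnc is at chr6:29433256-29461883 on the plus strand and Tmsb10 at chr6:72957347-72958748 on the minus strand. Emp3 is at chr7:45918023-45921404, Plvap at chr8:71497765-71511752 and Tmsb4x at chrX:167207093-167209315, all on the minus strand. RefSeq promoter windows (GRCm38.p6, 250 bases before to 50 after each annotated start) were available for 7 of the 8 genes, in 13 windows. The GC box (GGGCGG, either strand) was in 10 of the 13 windows against 35.7% of 32851 mouse promoters, and the TATA letters TATAAA (either strand) were in 2 of the 13 windows against 13.6%. The CArG box, the letters to which the actin-responsive serum response factor binds, was in 0 of the 13 windows and in 1.63% of all promoters. A match or its lack describes these letters only. The stretches from 50 to 21 bases before a start are shown for the 2 genes with TATA letters and for 2 with a GC box there, with those letters in capitals, to show where the letters near the start differ between genes.
Emp3 (chr7:45921447-45921476, minus strand): ctaaagtggaTATAAAagggttggtatata
Vim (chr2:13574261-13574290, plus strand): cctctttcctaacagtgtTATAAAagcagc
Tagln2 (chr1:172500196-172500225, plus strand): ttggcccttgccCCGCCCctggtCCGCCCc
Gsn (chr2:35256309-35256338, plus strand): ctgcgctcctccccagcctgccCCGCCCgc

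The libraries held 904 to 2784 oligodendrocytes, with a median of 9377 to 13726 unique molecular identifiers (UMIs, counted RNA molecules) per cell. Oligo1 held 1552 cells of KO mice, 859 and 448 in the hippocampus and 147 and 98 in the cortex libraries of mice 3 and 6, and 6 cells of WT mice, all from the hippocampus of mouse 4. Outside Oligo1 there were 5144 KO and 5879 WT cells. Of 12560 cell barcodes, 21 occurred in more than 1 library. A level below is the mean over cells of log2(normalized UMIs + 1), the UMIs of a cell being divided by its size factor. Intervals on shares of cells are 95% exact binomial (Clopper-Pearson) and cover counting error only.

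All 8 genes were higher in Oligo1 than in the other KO cells in each of the 4 KO libraries. This was so for 18% of 11669 genes measured in at least 1% of cells, and 15.8% were lower in all 4, so that the direction alone, which the choice of the genes used, is no result about them. The sizes differed between the genes. Flnc, Tagln2, Emp3 and Plvap went from near absence to a share of the cells, Vim stayed thin in both, Gsn and Tmsb4x were in nearly every cell of both and were higher in level, and Tmsb10 was higher in both its share of cells and its level.

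Among the filament-binding proteins, Flnc had a UMI in 38.5% (331 of 859) and 32.1% (144 of 448) of Oligo1 cells in the hippocampus of mice 3 and 6 and in 32.0% (47 of 147) and 21.4% (21 of 98) in cortex. Outside Oligo1 the same 4 libraries had 5.82%, 2.56%, 4.64% and 2.73% of cells with a Flnc UMI. Every Oligo1 share was above every share outside it, and mouse 3 was above mouse 6 in each tissue. Mean normalized Flnc UMIs were 9.3-fold to 17.3-fold higher in Oligo1, library by library. Tagln2 was found in 29.5% and 25.9% of hippocampal and 17.7% and 20.4% of cortical Oligo1 cells of mice 3 and 6. Outside Oligo1 the Tagln2 shares were 4.16%, 2.69%, 1.40% and 2.61% in the same order. The fold for Tagln2 ranged from 10.3 to 22.7, and the ranges of shares inside and outside Oligo1 did not overlap.

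Of the membrane proteins, Emp3 had a UMI in 28.6% and 23.2% of hippocampal and 19.0% and 21.4% of cortical Oligo1 cells of mice 3 and 6. Outside Oligo1 it was in 3.33%, 2.69%, 0.971% and 1.61% of the KO cells. Plvap was in 33.5% and 25.4% of hippocampal and 23.1% and 21.4% of cortical Oligo1 cells, against 3.01%, 1.61%, 0.755% and 1.74% outside. For both genes the Oligo1 shares stood apart from all others. The Emp3 fold was 12.1 to 19.5, and that of Plvap was 17.6 to 74.9, the highest being in the cortex of mouse 3, where only 7 cells outside Oligo1 had a Plvap UMI. Thinning each cell to 5000 UMIs lowered the Oligo1 shares of Plvap to between 10.2% and 21.4% and those outside to between 0.324% and 1.45%, and the groups stayed apart.

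Vim, the filament protein, was the least changed of the thinly detected genes. It was in 9.08% and 8.93% of hippocampal and 10.9% and 14.3% of cortical Oligo1 cells of mice 3 and 6, and in 4.83%, 3.50%, 4.10% and 2.98% of the other KO cells. The fold was 2.28, 2.63, 2.32 and 5.41. Here the cortex of mouse 6 was the high library, from 14 of 98 cells (exact interval 8.04% to 22.8%).

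**Figure D1:**
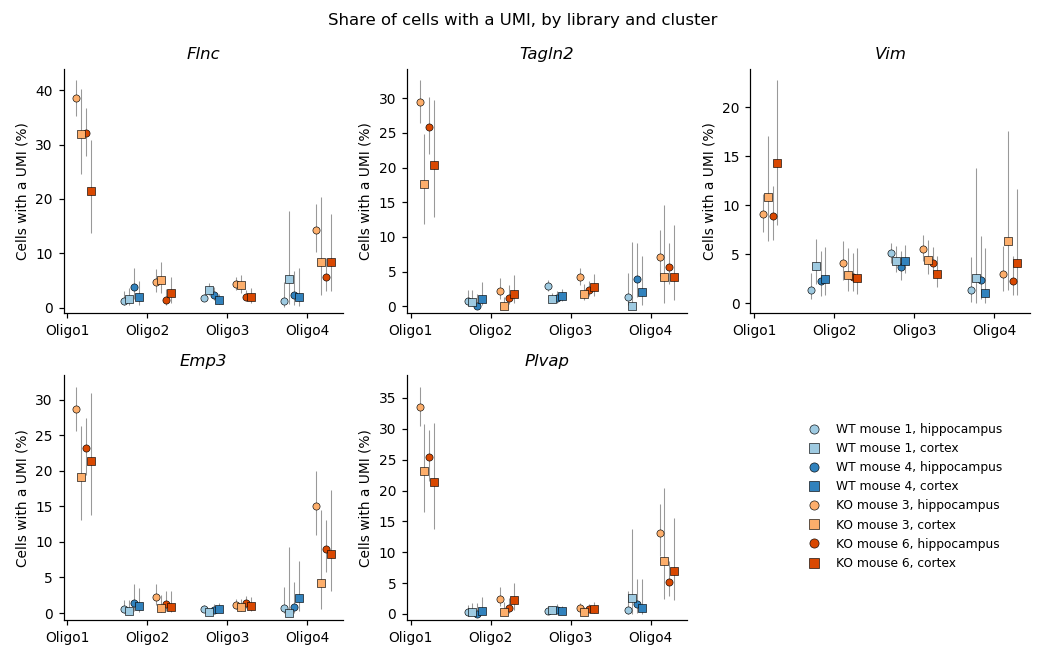
Share of cells with at least 1 UMI of Flnc, Tagln2, Vim, Emp3 and Plvap (y, percent, each panel with its own scale) in each cluster (x), 1 point per library with at least 20 cells, with its exact 95% interval. KO Oligo1 libraries stand highest for all 5 genes, and for Flnc, Emp3 and Plvap KO Oligo4 libraries lie between them and the rest, at 4.26% to 15.0% for Emp3.

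Tmsb4x and Gsn were in nearly every cell and differed in amount, and the other monomer binder, Tmsb10, was in fewer cells. Tmsb4x had a mean log2 level of 5.73 and 5.78 in hippocampal and 5.71 and 5.78 in cortical Oligo1 cells of mice 3 and 6, against 5.26, 5.24, 5.32 and 5.29 in the other KO cells. The difference, Oligo1 minus other, was 0.47 ± 0.06 (SD, n = 2 mice). It was in 100% of cells of every group, and its linear fold was 1.30 to 1.47. Gsn stood at 3.59 and 3.49 in hippocampal and 3.62 and 3.73 in cortical Oligo1 cells, against 3.05, 3.02, 3.17 and 3.16, a difference of 0.51 ± 0.02 (SD, n = 2 mice). Tmsb10 stood at 0.88 and 1.11 in hippocampal and 0.91 and 1.33 in cortical Oligo1 cells, against 0.53, 0.62, 0.52 and 0.65, a difference of 0.48 ± 0.16 (SD, n = 2 mice). Tmsb10 had a UMI in 65.1% and 75.2% of hippocampal and 69.4% and 87.8% of cortical Oligo1 cells, against 43.4%, 50.1%, 46.6% and 56.7% of the other KO cells and 32.6% to 53.3% of WT cells outside Oligo1. In its level, mouse 6 was above mouse 3 in both tissues, the opposite order to Flnc and Plvap.

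The Oligo1 levels of these 3 genes were not equally far from those of each other cluster. Gsn in KO Oligo2 cells was 3.42 and 3.44 in the hippocampus and 3.599 and 3.70 in the cortex of mice 3 and 6, a range that overlapped that of Oligo1. Within each KO library Gsn was higher in Oligo1 than in Oligo2, the closest values being 3.619 and 3.599 in the cortex of mouse 3. In KO Oligo3 cells Gsn was 2.90 to 2.97, below all of Oligo1 and Oligo2. Tmsb4x in KO Oligo2 cells was 5.58 to 5.62, below the lowest Oligo1 library (5.71) by less than the gap to Oligo3 (5.10 to 5.18). WT cells had the same order for both genes, with Gsn at 3.26 to 3.52 in Oligo2 and 2.78 to 2.86 in Oligo3. Tmsb10 was 0.67 to 0.83 in KO Oligo2 cells and 0.40 to 0.56 in KO Oligo3 cells. In KO Oligo4 cells Tmsb10 was 0.80 to 1.05, a range that overlapped that of Oligo1, and in the cortex of mouse 3 it was higher in Oligo4 (1.05) than in Oligo1 (0.91). The thinly detected genes had no such second peak in Oligo2, where KO mice had Plvap in 1.43% and 1.55% and Tagln2 in 1.13% and 1.49% of cells (mice 3 and 6, mean of 2 libraries).

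**Figure D2:**
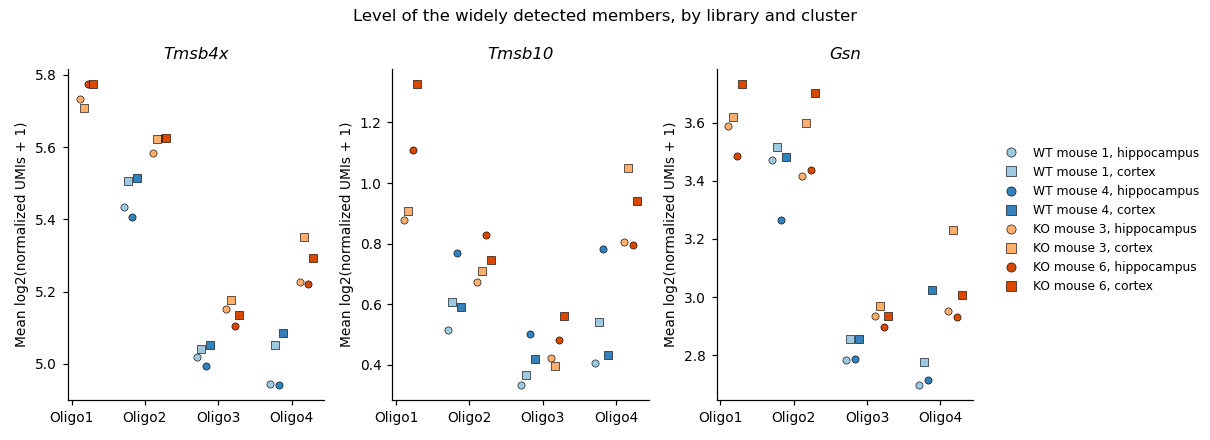
Mean log2(normalized UMIs + 1) of Tmsb4x, Tmsb10 and Gsn (y, not starting at 0) by cluster (x), 1 point per library with at least 20 cells. Gsn levels of KO Oligo1 (3.49 to 3.73) and KO Oligo2 (3.42 to 3.70) overlap across libraries, with Oligo1 the higher within each library. KO libraries lie above WT libraries in Oligo3 for Tmsb4x.

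The 6 WT cells placed in Oligo1 are too few for shares. Emp3 and Tagln2 had a UMI in 1 of the 6, Tmsb10 in 5, and Flnc, Plvap and Vim in 0 of the 6, which allows a share of up to 50% by the limit of 3 cells of the total used here for counts of 0. Their mean Tmsb4x level was 5.38 and their Gsn level 3.42, with 1 library and no spread.

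Because Plvap, Emp3, Vim and Tmsb10 are also made by blood vessel cells, and Tmsb4x by microglia, markers of other cell types were measured in the same cells. Among 10 endothelial markers, none was at 0 in KO Oligo1, and their summed normalized UMIs per cell were 0.0722 to 0.414 in Oligo1, 0.154 to 0.213 in the other KO cells and 0.0677 to 0.178 in WT cells outside Oligo1. Of the 2 endothelial markers in at least 1% of cells, 0 were higher and 1 was lower in Oligo1 in all 4 libraries. Oligo1 cells with a Plvap UMI carried a UMI of any endothelial marker in 10.1% of cases, and those without in 9.04%. For Vim the same shares were 16.2% and 8.62%, at a median depth of 12198 against 10646 UMIs. Mural markers summed to 0.0044 to 0.0509 in Oligo1 and 0.0045 to 0.102 in other KO cells. Fibroblast markers summed to 0.0038 to 0.0131 against 0.0005 to 0.0024, which did not overlap. Of these, Col1a2 was under the 1% filter but higher in Oligo1 in all 4 libraries (mean log2 0.0067 against 0.0007). Col3a1 was at 0 in Oligo1 and Dcn at 0 in the others. Macrophage markers summed to at most 0.0119 in Oligo1. Microglial markers summed to 0.117 to 0.179 in Oligo1, 0.129 to 0.177 in other KO cells and 0.524 to 1.28 in WT cells, with Tmem119 at 0 in both sets of KO cells. The 4 ependymal markers summed to 0.246 to 0.455 in Oligo1 and 0.137 to 0.243 in other KO cells, which did not overlap. The only one of them in at least 1% of cells, Foxj1, was higher in Oligo1 in all 4 libraries (1.84-fold). Rarres2 went the other way, lower in all 4 (mean log2 0.002 against 0.0053). Tmem212 and Ccdc153 each stood at 0.0016 in Oligo1, against 0 and 0.0002 in other KO cells. Each was higher in Oligo1 in 2 libraries and lower in 0. Foxj1 was also in 28.2% to 43.3% of WT Oligo4 cells by library, where Tmem212 and Ccdc153 were at 0. Vim and Gfap are also ependymal genes. The oligodendrocyte marker Mog had a UMI in 100% of cells in each group. The part of RNA from other cells in the values of the 8 genes was not tested beyond these measurements.

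Outside Oligo1, KO and WT mice were compared on the mean of each mouse's 2 libraries (limma across 11648 genes, 2 mice against 2). Of all genes tested, 3 were called at an adjusted p under 0.05 (0.0258%), namely C4b and Serpina3n, higher in KO, and Ctss, lower, and none of the 8 was among them. Ctss is among the microglial markers above, whose sum was higher in WT cells, and the part of microglial RNA in its difference was not tested. At an unadjusted p under 0.05 there were 177 genes, among them Emp3, Plvap and Tagln2. In WT libraries Emp3 was in 0.224% to 0.801% and Plvap in 0.464% to 0.672% of these cells. Both genes thus passed the filter of 1% of cells only through the KO mice, and their p-values are not taken as support. By edgeR on summed UMI counts 16 genes were called and again no member, Emp3 being the nearest (adjusted p = 0.0598). Both KO mice were above both WT mice for 7 of the 8, against 11.4% of all genes, but a two-sided exact permutation test of 2 against 2 cannot go below p = 0.333. Vim was the exception, at 0.041 and 0.026 in KO and 0.039 and 0.029 in WT mice.

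Tmsb4x was 5.29 and 5.26 in KO mice 3 and 6 and 5.12 and 5.10 in WT mice 1 and 4, and Gsn was 3.11 and 3.09 against 2.95 and 2.93. KO minus WT was 0.17 (SE 0.12, limma adjusted p = 1.00) for Tmsb4x and 0.16 (SE 0.18, adjusted p = 1.00) for Gsn. The limma SE draws on the variance of genes of like level, and for these 2 genes it was wider than the spread of the mice. Within each of the 4 batches, which each held 1 tissue of 1 KO and 1 WT mouse, Tmsb4x was 0.15 to 0.18 and Gsn 0.15 to 0.17 higher in KO. Tmsb10 was 0.53 and 0.63 in KO and 0.40 and 0.52 in WT mice, with batch differences from 0.03 to 0.20.

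Emp3 was the member nearest to a call, at 0.020 and 0.019 in KO and 0.004 and 0.006 in WT mice, and KO minus WT was 0.01 (SE 0.0027, limma adjusted p = 0.584). Plvap was 0.016 and 0.013 in KO and 0.004 in both WT mice (KO minus WT 0.01, SE 0.0027, adjusted p = 1.00). Tagln2 differed by 0.01 (SE 0.0034, adjusted p = 1.00) and Flnc by 0.01 (SE 0.0071, adjusted p = 1.00). The Flnc difference rested on mouse 3: it was 0.025 without mouse 6 and 0.0026 without mouse 3. In shares, Emp3 was in 126 of 5144 KO cells (2.45%, interval 2.04% to 2.91%) and 33 of 5879 WT cells (0.561%, interval 0.387% to 0.787%) outside Oligo1. Plvap was in 0.544% of WT cells outside Oligo1. In KO Oligo3 cells Emp3 was in 1.12% and Plvap in 0.777%. Free RNA can give single UMIs and was not measured, so the background of the KO libraries is not known.

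Among Oligo2 to Oligo4, the KO shares of Flnc, Tagln2, Emp3 and Plvap were highest in Oligo4. In KO Oligo4 cells Emp3 had a UMI in 15.0% (40 of 266) and 8.96% (24 of 268) of hippocampal and 4.26% (2 of 47) and 8.33% (6 of 72) of cortical cells of mice 3 and 6. In WT Oligo4 cells it was in 0.671% (1 of 149) and 0.8% (1 of 125) of hippocampal and 0 of 38 and 2.06% (2 of 97) of cortical cells of mice 1 and 4, and 0 of 38 allows up to 7.895% by the limit of 3 cells. Every KO library lay above every WT library. Within Oligo4, chosen after the data were seen, limma called 11 of 11719 genes (0.0939%) and Emp3 was 1 of them, KO minus WT 0.08 (SE 0.0120, adjusted p = 0.0114), with both KO mice higher. By edgeR Emp3 was also called (adjusted p = 0.00057). It was in 0.883% of WT and 9.145% of KO Oligo4 cells (means of the mice). Emp3 thus passed the 1% filter only through the KO mice, and neither call is taken as support. Leaving out a mouse leaves 1 in an arm with no spread of its own, so only the difference is given. It was 0.0816 without WT mouse 1, 0.0871 without WT mouse 4 and 0.0779 without KO mouse 3. Of the 6 members in at least 1% of cells within each of Oligo2 and Oligo3, none was called there, where limma called 0.0688% and 0.0173% of genes. Tagln2 and Plvap in Oligo2 and Emp3 and Plvap in Oligo3 were under that filter and were not tested. The difference between the clusters was not tested.

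Within Oligo4 both KO mice were above both WT mice for all 8 genes, against 15% of all genes. Plvap was in 10.8% and 6.08% of Oligo4 cells of KO mice 3 and 6 (mean of 2 libraries) and 1.65% and 1.31% of those of WT mice 1 and 4. Its KO minus WT was 0.06 (SE 0.0137), with a limma adjusted p of 0.376 and an edgeR adjusted p of 0.0243, so the call rests on the test. The 2 KO mice differed, with a Plvap level of 0.0886 in mouse 3 and 0.0421 in mouse 6, against 0.0102 and 0.0088 in WT mice 1 and 4. Tmsb10 stood at 0.93 and 0.87 in KO and 0.47 and 0.61 in WT mice, KO minus WT 0.36 (SE 0.0664, limma adjusted p = 0.0772, and 0.1065 by edgeR). The Tmsb10 difference was 0.2906 without WT mouse 1, 0.4252 without WT mouse 4, 0.3275 without KO mouse 3 and 0.3883 without KO mouse 6. Flnc was in 11.4% and 6.97% of KO and 3.30% and 2.23% of WT Oligo4 cells (limma adjusted p = 0.823). Its KO minus WT was 0.0465, with 0.0669 without mouse 6 and 0.0261 without mouse 3. Tagln2 was in 5.70% and 4.88% against 0.671% and 3.03% (adjusted p = 0.820). Vim was in 4.70% and 3.20% against 1.99% and 1.72% of cells (adjusted p = 1.00). Endothelial markers summed to 0.0579 to 1.02 in KO and 0.0165 to 0.0523 in WT Oligo4 cells. Erythrocyte markers summed to 0.251 to 18.0 in KO and 0.136 to 0.245 in WT, and ependymal markers to 0.310 to 0.449 and 0.234 to 0.342. The part of these cell types in the differences was not tested. Oligo4 cells with an Emp3 UMI had an endothelial marker in 8.33% of cases and those without in 9.64%, and for Plvap these shares were 13.8% and 9.08%. The clusters were drawn on the same expression values, so a KO cell near the border between Oligo1 and Oligo4 can count in either.

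Between tissues, no gene was called outside Oligo1 in the comparison of hippocampus with cortex (0% of 11648, limma with genotype as covariate, with 597 genes at an unadjusted p under 0.05) or in the interaction of genotype and tissue (0%, 613 genes). With the mouse as a block, which the shared animals warrant, 95 genes were called for tissue and no member, the lowest adjusted p of a member being 0.180 for Tagln2. Gsn was lower in the hippocampus in 4 of 4 mice, by 0.12 on average (SE 0.0877, adjusted p = 0.969, and 0.230 with the block), and Tmsb4x also in 4 of 4, by 0.06 (SE 0.0645, adjusted p = 0.976, and 0.387 with the block).

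In single Oligo1 cells the thinly detected genes were found together. The 5 members under 50% of Oligo1 cells in every KO library were Flnc, Tagln2, Vim, Emp3 and Plvap. For each of their 10 pairs, cells with both were counted and set against the product of the 2 shares within library and depth quintile. In the 1552 KO Oligo1 cells all 10 pairs were found together more often than the product, at ratios from 1.33 (Flnc with Vim) to 1.74 (Tagln2 with Emp3) and a median of 1.56. The median ratio was 1.51 and 1.74 in the hippocampus of mice 3 and 6 and 1.56 and 1.45 in the cortex. In the cortex of mouse 3, with 147 cells, 2 of the 10 pairs were below the product, Flnc with Vim (0.944) and Vim with Plvap (0.83), and in the other 3 libraries none was. Of Tagln2-positive cells 49.9% had Emp3, against 16.9% of Tagln2-negative cells, and 52.5% had Plvap, against 21.0%. Of Emp3-positive cells 51.9% had Plvap, against 21.7% of the others. Cells are not replicates, so these are descriptions with no test. No pairs of other genes of like detection were set beside them, so the ratios are not shown to be particular to these genes.

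The number of these 5 genes per Oligo1 cell was spread more widely than single shares give. None of the 5 was found in 575 cells (37.0%, against 24.9% expected), 1 in 27.9%, 2 in 16.6%, 3 in 10.4%, 4 in 6.19% (2.0% expected) and all 5 in 29 cells (1.87%, against 0.163%). At least 3 were found in 18.5% of cells against 11.8%, a ratio of 1.57, with 1.504 and 1.73 in the hippocampus and 1.68 and 1.52 in the cortex of mice 3 and 6. At least 2 were found in 35.1%, close to the 37.2% expected, as fewer cells than expected had 1 or 2 and more had none or at least 3. In KO Oligo4, 28.0% of 653 cells had at least 1 of the 5, against 11.7% in KO Oligo3, 10.1% in KO Oligo2 and 8.49% in WT cells outside Oligo1. The pair ratios in KO Oligo4 ran from 0.981 (Vim with Plvap, 2 cells) to 3.05 (Tagln2 with Plvap, 11 cells), median 2.07. The median was 2.29 in KO Oligo2 (at most 5 cells a pair) and 1.70 in KO Oligo3 (at most 11), so ratios above 1 were not limited to Oligo1. In WT cells outside Oligo1 4 of the 10 pairs were above the product (median 0.802), among them Tagln2 with Vim (13 cells against 4.8), and the other 9 pairs were each in at most 5 cells.

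**Figure D3:**
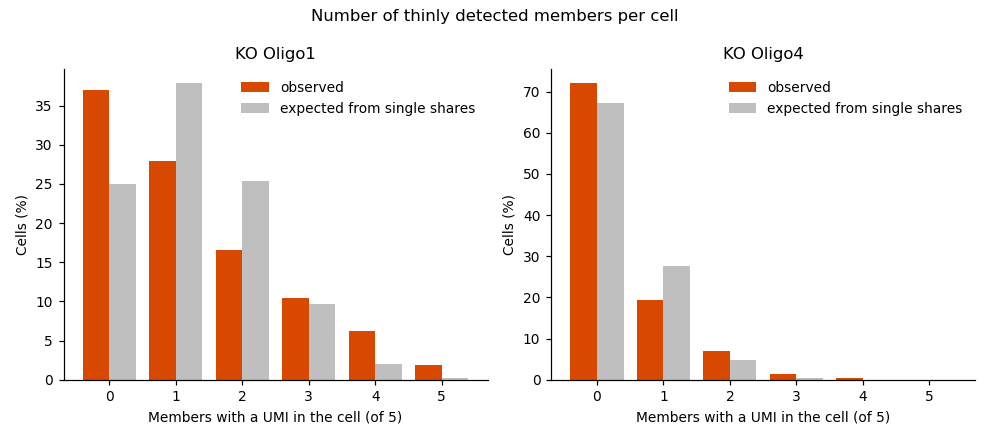
Percent of cells (y) by the number of Flnc, Tagln2, Vim, Emp3 and Plvap with a UMI (x), observed (orange) and expected from each gene's share within library and depth quintile (grey), for 1552 KO Oligo1 and 653 KO Oligo4 cells. Observed shares exceed the expected ones at 0 and at 3, 4 and 5 genes in Oligo1, where 37.0% of cells had none.

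Depth was close but not equal across these cells, at a median of 10515 UMIs in Oligo1 cells with none of the 5 and 11652 in those with at least 3. Tmsb4x was higher along the same order, from 5.70 in cells with none to 5.80 in cells with at least 3, and Tmsb10 from 0.90 to 1.13, whereas Gsn was 3.6009 and 3.53. For Tmsb4x this order held in both libraries of mouse 3. In mouse 6 the level was 5.78 with none and 5.73 with at least 3 in the hippocampus, and 5.80 and 5.67 in the cortex (10 cells with at least 3), so the order was the opposite in both libraries. Serpina3n, a serpin that was called higher in KO cells outside Oligo1, had a UMI in 78.3% of Oligo1 cells with none of the 5 genes and 97.2% of those with at least 3. C4b, a complement gene called with it, was in 98.4% and 99.7%. In KO Oligo4 the C4b shares were 52.1% in cells with none and 83.1% in cells with at least 1 of the 5, and those of Serpina3n were 19.6% and 42.6%.

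Across 28 groups of library and cluster with at least 20 cells, the genes whose mean level went most like each member are given as a description, since the groups share libraries, mice and the Oligo1 contrast. Plvap went most like Anxa2 (Pearson r = 0.992), Flnc (0.990) and Fos (0.978). Flnc went with Plvap, Steap3 (0.988) and Anxa2 (0.983), Tagln2 with Anxa2 (0.986), Flnc (0.976) and Plvap (0.974), and Emp3 with Col6a1 (0.982), Tagln2 (0.969) and Anxa2 (0.965). Tmsb4x and Gsn were each other's nearest gene (0.964), followed by Txn1 (0.963 and 0.929) and Lmna (0.945 and 0.940). Tmsb10 had Hsd17b7 (0.885), Ifi27 (0.860) and Tle3 (0.855), and Vim had Msrb1 (0.868), Cachd1 (0.864) and Nudt22 (0.846). The members thus fell into Flnc, Tagln2, Emp3 and Plvap, with r of 0.955 to 0.990 among them, and the pair Tmsb4x and Gsn, with r of 0.429 to 0.587 to those 4.

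The 8 genes were then set beside 12 lists of actin and membrane genes, 119 in all, of which 89 were in at least 1% of the KO cells. Of these 89, 30 were higher and 17 lower in Oligo1 in all 4 libraries, against 18% and 15.8% of all genes, and their median difference was 0.01 against 0.00 for all genes. The lists also hold other members of the families of the 8 genes. Outside Oligo1 limma called none of the 88 genes tested between KO and WT, and 3 had an unadjusted p under 0.05.

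Arp2/3, the complex that starts branched filaments, had 7 of 9 subunits higher in all 4 libraries, led by Arpc1b at 0.64 ± 0.03 (log2 difference, SD, n = 2 mice), then Arpc1a at 0.13, Arpc2 at 0.10 and Arpc5 at 0.05. Some were barely higher: in a single library Arpc4 differed by 0.0021 and Arpc5 by 0.0031. Their lowest linear folds were 0.972 and 0.996, so the count depends on the scale. Of the ERM linkers, which tie membranes to actin, Slc9a3r2 was 0.79 ± 0.04 and Msn 0.12 ± 0.01 higher, and Rdx was 0.10 ± 0.06 lower. The actins themselves moved little: Actb was 0.07 ± 0.02 lower in 4 of 4 libraries and Actg1 0.10 ± 0.06 higher in 3 of 4. Of the 10 monomer binders measured, 4 were higher, with the cofilin Cfl2 at 0.18 ± 0.02, Twf1 at 0.10 and Dstn at 0.06, while Pfn2 was lower at -0.07.

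The families of the members did not move as one. Of the crosslinkers, Actn4 was 0.17 ± 0.06 higher, but the bundlers Fscn1 (-0.28 ± 0.13) and Pls1 (-0.14 ± 0.05) were lower in all 4 libraries. In the gelsolin and capping list Tmod1 was 0.08 and Capza2 0.05 higher, and Tmod2 lower at -0.07. Pmp22, the namesake of the family of Emp3, was lower at -0.40 ± 0.06, and Emp2 differed by -0.01. Among intermediate filaments, where Vim belongs, Lmna was 0.24 ± 0.05 and Gfap 0.08 ± 0.05 higher and Synm 0.10 ± 0.06 lower. Gfap and Vim are also astrocyte genes, and the 6 astrocyte markers summed to 0.925 to 1.53 in Oligo1 and 1.67 to 2.21 in other KO cells. Of the caveolar genes beside Plvap, Cavin3 was higher at 0.13, Pacsin2 at 0.03 and Ehd2 at 0.02, and Cavin2 was lower at -0.05. Myosin II and tropomyosin genes were lower in 4 of 9 (Myh14 at -0.15, Myl12b at -0.10, Myl12a at -0.06) and higher in 1, Tpm3 at 0.15. Of 6 genes of the serum response factor and its actin-regulated partners, 1 was higher, the target Zyx at 0.10 ± 0.02, and Srf differed by -0.00.

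**Figure D4:**
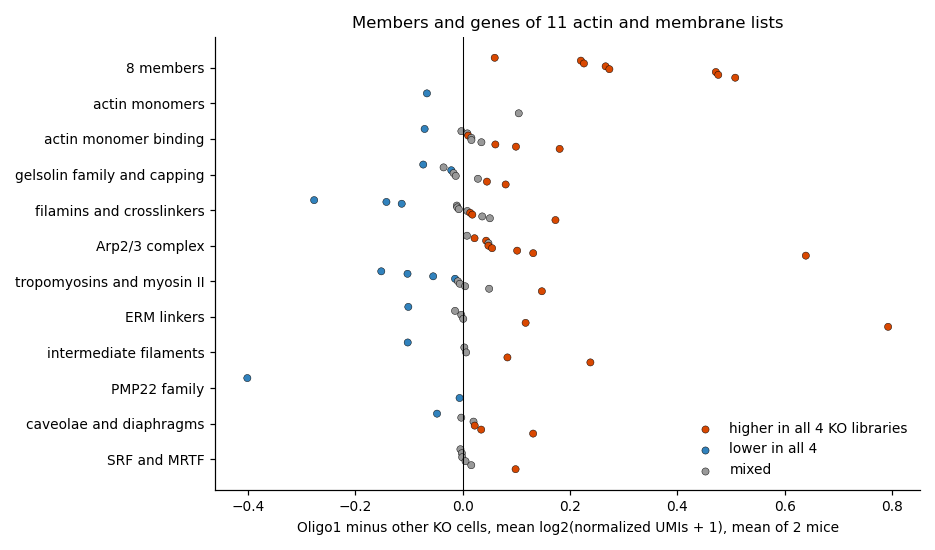
Difference of Oligo1 minus other KO cells in mean log2(normalized UMIs + 1), averaged over 2 mice (x), for the 8 genes and for genes of 11 lists in at least 1% of cells (y), coloured by direction in the 4 KO libraries. Slc9a3r2 (0.79) and Arpc1b (0.64) lie beyond the 8 genes on this scale, though their folds (3.82 and 2.01) are below the 11.1 to 23.1 of Flnc, Tagln2, Emp3 and Plvap, and Pmp22 (-0.40) is the lowest.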

How the data were processed

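Cells were aligned and counted with Cell Ranger 5.0.0 on mm10 per the labels and the study's methods. The deposited matrix holds log2 values, which the authors made by dividing each cell's UMI counts by a size factor and adding 1 before the logarithm. All 42420937 values above 0 gave whole UMI counts within 0.001 once the deposited size factors were applied. The recovered UMI total equalled the deposited total in 11264 of 12581 cells, and in the others the totals differed. The authors deposited per-cell count totals, percent of mitochondrial UMIs and size factor scores, and the clusters Oligo1 to Oligo4, used as given. Doublets were handled only by the scatter gate of the sort.

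The 8 genes and all lists were chosen with earlier results of these data known. Named list genes are the 4 with the widest difference per list, and 1 list and 1 further gene are not reported here. The mouse was the replicate for KO against WT and for the interaction, and the library in the tissue fit without the block. The limma p-values draw on the variance of genes of like level as well as on the spread between these 4 mice. Mean log2 values per mouse were fitted with limma 3.58.1 (variance trend, genes in at least 1% of cells, Benjamini-Hochberg). Alternatives were other scales, filters, clusters and tissues, thinning to 5000 UMIs, edgeR 4.0.16 on UMI counts, and each mouse left out. The 2 libraries of a mouse deviated together (r = 0.835 in WT and 0.852 in KO across genes), as they come from the same animal. The limma and edgeR fits of KO against WT, with 2 mice in each arm, were checked on simulated data. The tissue, interaction and leave-out fits were not.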

Additional observations from a re-analysis of the deposited data

How the results depend on the processing

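With 2 mice per arm, counts of called genes moved with the setting, and the cause was not tested. KO minus WT outside Oligo1 called 3 genes as reported, 7 on log2 of the mean plus 0.1, 0 with no filter (690 at an unadjusted p under 0.05), 0 with no variance trend (213) and 0 in cortex alone (231), 5 in hippocampus alone, 9 with the clusters weighted equally and 16 by edgeR. Settings added after seeing the data gave 8 in Oligo2 alone, 11 in Oligo4 alone and 37 in Oligo4 alone by edgeR. Leaving out a mouse gave 30 to 93 calls, 34 without WT mouse 1, 30 without WT mouse 4, 93 without KO mouse 3 and 71 without KO mouse 6, the lone mouse of an arm being assumed to vary like the others. In Oligo4 alone the same gave 38, 46, 49 and 43 calls. The tissue comparison called 0 genes without and 95 with the mouse as replicate block, and the block changed no member's call. The median pair ratio of co-detection was 1.56 as reported, 1.77 in thinned cells, 1.74 from shares within library alone, and 1.48 to 1.67 without a KO mouse.

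All 8 genes stayed higher in Oligo1 in every KO library under each alternative run. The genes were chosen for this direction and the clusters were drawn on the same values, so the count is no support for it. Vim, KO minus WT -0.0005, turned to 0.009 with equal cluster weights, 0.003 in hippocampus alone, 0.0078 in Oligo2 and 0.0208 in Oligo4. By edgeR, which gives the log2 fold of summed UMIs and so another scale, Vim was 0.1409, and 1.4765 in Oligo4. Without a mouse Vim ranged from -0.0077 to 0.0067, with 0.0044 without WT mouse 1, and in Oligo4 it was 0.0218, 0.0199, 0.0088 and 0.0329 without mice 1, 4, 3 and 6. Tmsb10 for tissue turned from 0.0144 to -0.0006 in Oligo3 alone and ranged from -0.0271 (without WT mouse 4) to 0.0399. The interaction of Tmsb10 ranged from -0.1485 to 0.0524 and that of Vim from -0.002 to 0.0157, both turning without WT mouse 4. Emp3, Plvap and Tagln2 were below the 5% filter, as were Flnc and Vim, and have no value under it. Depth limits the shares of these 5 genes, since a cell without a UMI is not shown to lack the gene.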
